A study of Mus musculus with 4 samples.

Results

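Interferon-stimulated genes are the genes that cells switch on when interferons bind their receptors, and 41 of them were followed here by a list of gene symbols. On the array, 38 of the 41 had a feature, each with 1 feature, out of 19505 genes with a symbol and 22206 gene features in all; Gbp5, Ddx60 and Ifi44 were not measured here. The CD8+ T cells came from C57/BL6 mice, from both spleen and lymph nodes. All cultures were stimulated for 3 days with beads carrying antibodies to CD3 and CD28, in medium with IL-2. The treated cultures received 25 µM spermidine, a polyamine, and the control cultures were left untreated, with no vehicle named. RNA of 2 control and 2 spermidine cultures, 250 ng each, was hybridised to Clariom S Mouse arrays, 1 array per sample. The labels call the arrays of a group biological replicates and name no animals, ages or sexes, so the p-values measure only the spread between these samples. Signals are log2 values, a difference is the mean spermidine value minus the mean control value on that scale, and 2 arrays a group limit how precisely it is known. Values of a pair of arrays are given in the order of replicates 1 and 2.

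Type I interferons signal through the receptor chains Ifnar1 and Ifnar2 and the kinases Jak1 and Tyk2. These lead to a complex holding Stat2 and Irf9 that binds the interferon-stimulated response element (ISRE) in promoters. Interferon gamma, which activated CD8+ T cells secrete themselves, signals through Ifngr1 and Ifngr2 to gamma-activated sites (GAS) in promoters and induces Irf1 and the guanylate-binding GTPases. The products of the induced genes detect foreign RNA, block its translation or copying, attack the vacuoles of intracellular microbes, and restrain the signal again.

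Promoter sequences near the annotated starts were searched for the core letters of these elements. RefSeq promoter windows (build GRCm38.p6, 250 bases before to 50 after each annotated start) were matched by symbol for 32 of the 41 genes, 29 of them measured. The ISRE core was searched as GAAANNGAAA on both strands, so also as TTTCNNTTTC, and the GAS core as TTCNNNGAA, which reads the same on either strand. The ISRE core lay in 20 of the 32 genes (62.5%), against 3.99% of all 27025 genes of the table; by window, in 21 of the members' 39 (53.8%), against 3.44% of all 32851. The GAS core lay in 11 of the 32 genes (34.4%), against 9.55% of all genes, and in 28.2% of the members' windows, against 8.3% of all windows. A match is a description of letters and does not show binding. A window without a match does not show that a gene lacks the element, since only these bases and these exact cores were searched.

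Of the 4 IFIT genes, 3 held a pair of ISRE cores and Ifit2 held none in its windows. The stretches shown lie before the start of Ifit3 (chr19:34583369-34583528, plus strand), Ifit3b (chr19:34607767-34607956, plus strand) and Ifit1 (chr19:34640779-34640888, plus strand), with ISRE cores in capitals. They come from the group with the lowest median difference. Pairs of ISRE cores were not particular to it. Oas1a, Bst2, Gbp3 and Irgm1 also held 2, with differences of -0.26, -0.28, -0.10 and -0.05. A link between the cores and the differences was not tested.
Ifit3: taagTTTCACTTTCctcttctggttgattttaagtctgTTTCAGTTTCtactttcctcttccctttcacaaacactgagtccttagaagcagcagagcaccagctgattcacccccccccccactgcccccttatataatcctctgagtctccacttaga
Ifit3b: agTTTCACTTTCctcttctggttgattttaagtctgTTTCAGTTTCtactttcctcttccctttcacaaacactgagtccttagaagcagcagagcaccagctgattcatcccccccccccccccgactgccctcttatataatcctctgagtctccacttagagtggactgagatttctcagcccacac
Ifit1: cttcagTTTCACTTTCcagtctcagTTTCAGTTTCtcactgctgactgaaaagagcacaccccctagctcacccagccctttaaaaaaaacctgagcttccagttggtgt
Between the 300-base windows of Ifit3 and Ifit3b, 259 of 260 aligned bases were identical (99.6%, or 76.2% of the whole alignment with its gaps). Between those of Ifit1 and Ifit3, 186 of 246 were identical (75.6%, or 52.5%). The ISRE cores began at -156 and -122 from the start in Ifit3 and at -188 and -154 in Ifit3b. The windows of Ifit3 and Ifit3b are thus offset, which adds gaps to their alignment. Closely related genes can share probes on an array, so the values of Ifit3 and Ifit3b may not be independent; probe sequences were not used here.

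The next stretches come from genes whose arrays overlapped between the groups. Isg15 (chr4:156200819-156200908, minus strand) carries 3 overlapping ISRE cores, and the GTPase gene Gbp2 (chr3:142620573-142620662, plus strand) carries 1. The GTPase gene Igtp (chr11:58199466-58199555, plus strand) carries 1 GAS and 1 ISRE core, and the transcription factor gene Irf1 (chr11:53769914-53770013, plus strand) carries 1 GAS core. Matches to either core are in capitals.
Isg15: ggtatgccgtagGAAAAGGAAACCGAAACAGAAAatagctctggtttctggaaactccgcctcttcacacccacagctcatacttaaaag
Gbp2: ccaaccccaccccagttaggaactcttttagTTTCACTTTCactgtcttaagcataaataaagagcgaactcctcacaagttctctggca
Igtp: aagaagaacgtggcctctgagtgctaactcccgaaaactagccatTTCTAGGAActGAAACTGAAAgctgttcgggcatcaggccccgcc
Irf1: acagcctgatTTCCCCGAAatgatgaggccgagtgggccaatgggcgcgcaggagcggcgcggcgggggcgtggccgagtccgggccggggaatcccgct
Elsewhere, overlapping ISRE cores also lay in the windows of Bst2, Gbp3, Irgm1 and Oas1a, and in Bst2 a GAS core overlapped an ISRE core. Of the 5 members with the largest differences, Ifit3 held ISRE cores, the windows of Xaf1 and Cmpk2 held neither core, and Mx1 and Rtp4 had no window in the table. The windows of the transcription factor genes Irf7 and Irf9 held neither core.

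**Figure D1:**
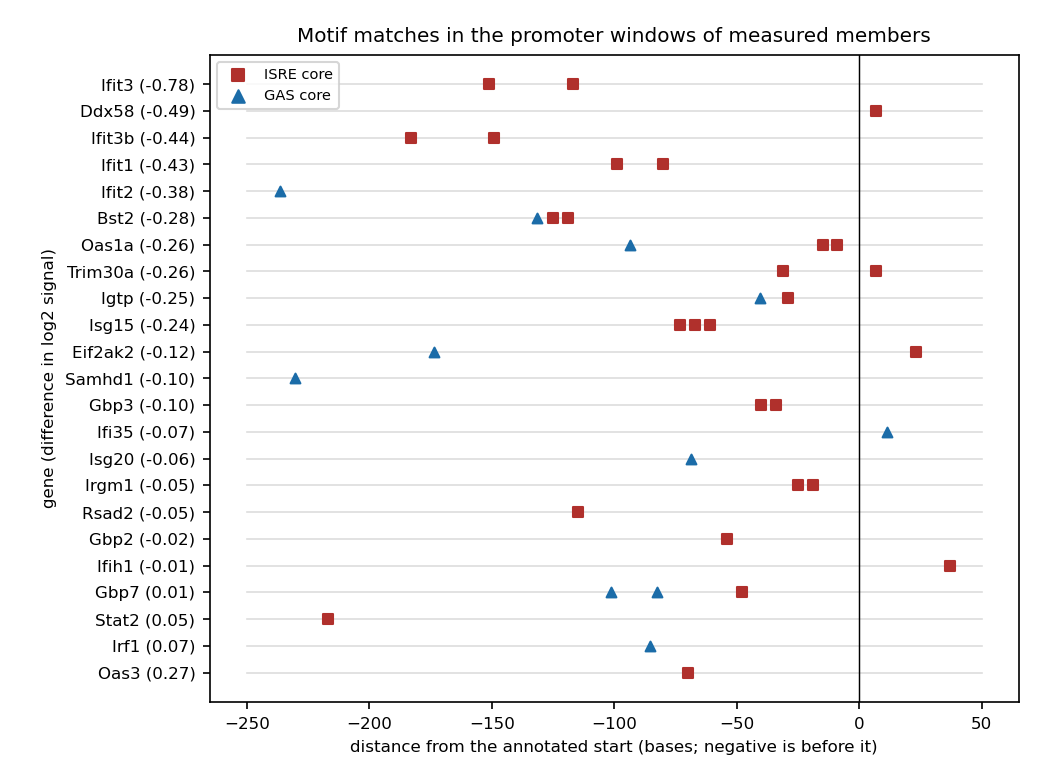
Positions of ISRE cores (squares) and GAS cores (triangles) in the promoter windows of the measured members that hold at least 1 match, against the distance from the annotated start in bases; genes are ordered by their difference in log2 signal, given in brackets, and several windows of a gene share a line. Matches are found among the lowest differences (Ifit3, -0.78) and the highest of the genes drawn (Oas3, 0.27). The windows of Ifit2 hold a GAS core and no ISRE core, which does not show that the gene lacks one.

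Across the 38 measured members, spermidine cultures gave a lower mean signal in most genes, by small amounts, and Mx1 had the largest difference, upward. Of the 38, 27 lay lower and 11 higher (71.1% and 28.9%), against 50.9% and 49.1% of all 22206 gene features and 54.2% lower among the 9228 features with a mean at or above background. The median difference of the members was -0.11 and that of all gene features -0.01, and the members ranged from -0.89 (Xaf1) to 1.0 (Mx1). No member passed an adjusted p of 0.05 in the fit over all features (limma, Benjamini-Hochberg), where percent called was 0, and the adjusted p of the members ran from 0.637 to 0.996. At an unadjusted p under 0.05 there were 5 members, Mx1 above and Ifit3, Xaf1, Rtp4 and Cmpk2 below. Of all features 3.38% passed above and 3.64% below, 7.02% in all. Among those with a mean at or above background 3.61% passed above and 5.32% below. None of the differences named here is therefore a called change.

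The arrays of the groups were apart in 12 of the 38 members. Both spermidine arrays lay below both control arrays in 9 members (23.7%) and above them in 3 (7.89%), beside 18.4% and 18.3% of all features. Among the features with a mean at or above background the same shares were 22.5% and 19.2%. The members' share on the lower side was thus near that of features, and their share on the higher side was below it. The difference was larger than the gap between arrays of either group in 9 members (23.7%), and in 24.5% of all features. Groups that were apart by at least 0.5 numbered 1 higher member (2.63%) and 4 lower members (10.5%), beside 4.9% and 5.6% of all features.

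Leaving out 1 array changed these counts. Such a fit takes its spread from the 2 arrays of the other group, with 1 residual degree of freedom besides the shared prior, and assumes that the lone array varies like them. The 5 members at an unadjusted p under 0.05 became 0 without control replicate 1, 7 without control replicate 2, 6 without spermidine replicate 1 and 2 without spermidine replicate 2. The median difference of all members stood at -0.05 when control replicate 1 or spermidine replicate 2 was left out. It stood at -0.24 when control replicate 2 was left out and at -0.19 when spermidine replicate 1 was.

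**Figure D2:**
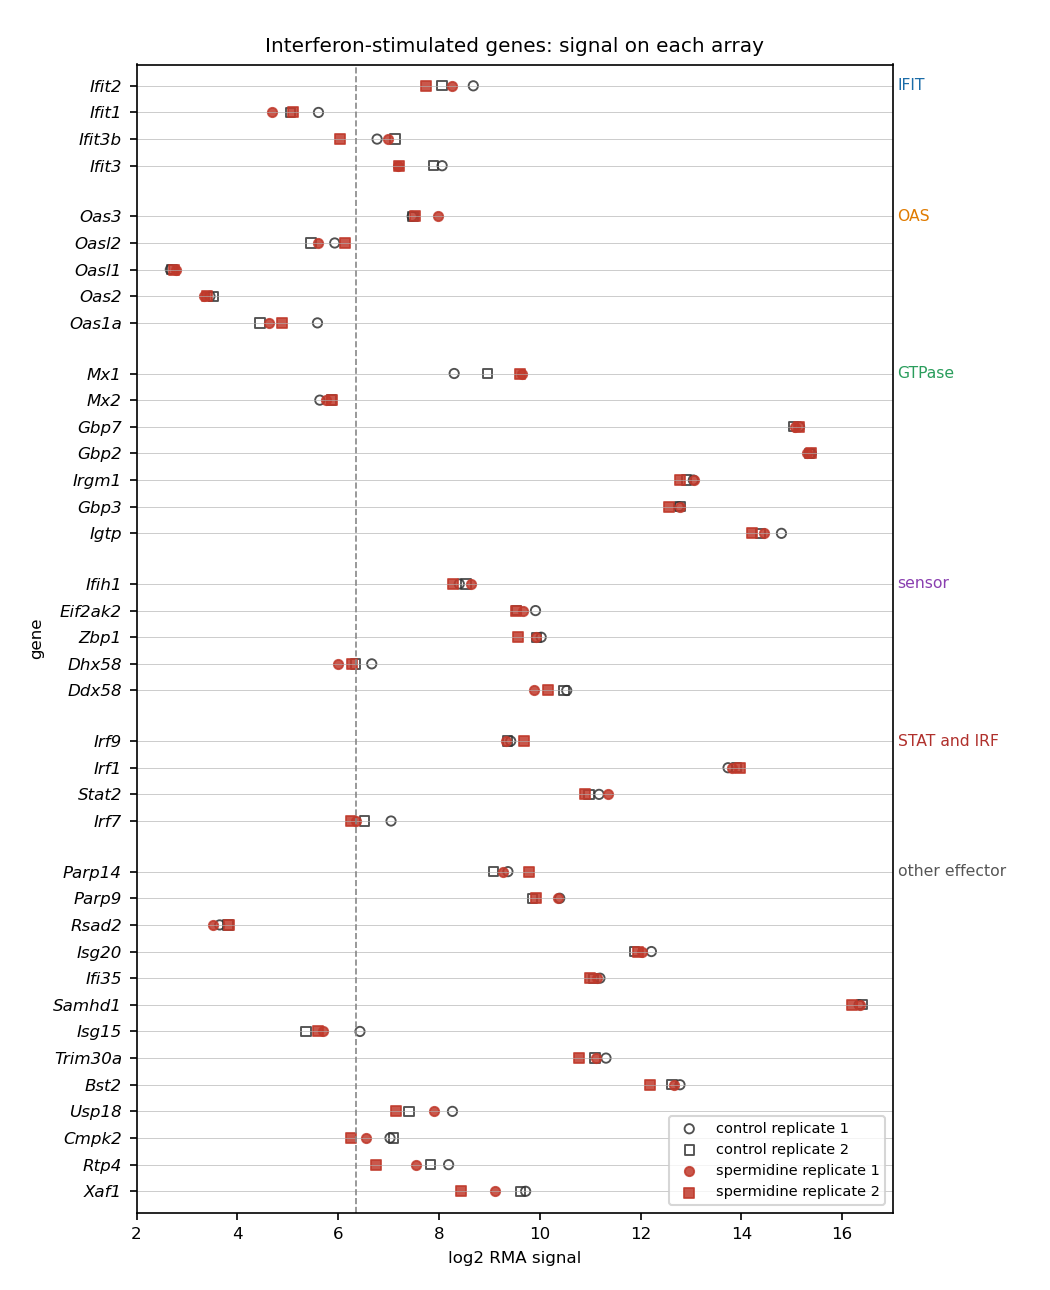
Signals (log2) of the 38 measured members on each array, by group of genes; open symbols are the 2 control arrays, filled symbols the 2 spermidine arrays, circles replicate 1 and squares replicate 2, and the dashed line is the background level of 6.35. Control replicate 1 is often the rightmost point, and Mx1 is the clearest case in which both spermidine arrays lie to the right of both control arrays.

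Background here is 6.35, the 95th percentile of the antigenomic probes (which match no mouse sequence), averaged over the arrays. On all 4 arrays 26 members lay above it and 7 below it, the latter being Ifit1, Oas1a, Oas2, Oasl1, Oasl2, Mx2 and Rsad2; the remaining members, Ifit3b, Dhx58, Irf7, Isg15 and Cmpk2, lay above it on 1 to 3 arrays. Differences of signals near or below background are compressed and give no measure of a fold.

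The IFIT genes, of which Ifit1 encodes a protein that binds foreign RNA lacking the host cap marks, all had lower mean signals with spermidine. Their median difference was -0.44 (4 of 4 lower, 0 passing the adjusted test), the lowest of the groups, though Ifit3b lay higher without spermidine replicate 2. Ifit3 had 8.06 and 7.89 without spermidine against 7.20 and 7.21 with it. No array of either group crossed into the other, and the difference was -0.78 ± 0.22 (SE), 1.71-fold lower (limma adjusted p = 0.637); over the arrays left out it ran from -0.86 to -0.69. Its relative Ifit3b had 6.77 and 7.13 without spermidine against 6.99 and 6.04 with it. There the groups overlapped, since spermidine replicate 1 lay between the control arrays, and the difference was -0.44 ± 0.33 (SE).

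For Ifit2 the signals were 8.68 and 8.06 without spermidine against 8.25 and 7.74 with it. Spermidine replicate 1 exceeded control replicate 2, and the difference was -0.38 ± 0.30 (SE). Ifit1 lay below background on every array, with 5.61 and 5.05 without spermidine against 4.68 and 5.11 with it. Its groups overlapped by the narrow gap between control replicate 2 and spermidine replicate 2, and its difference of -0.43 ± 0.28 (SE) became -0.15 without control replicate 1 and -0.71 without control replicate 2. The median of the group was -0.70 without control replicate 2, -0.70 without spermidine replicate 1 and -0.38 without either other array.

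The OAS genes encode enzymes that make short adenylate chains on contact with double-stranded RNA and so activate the nuclease RNase L, together with the OAS-like genes Oasl1 and Oasl2. Of 5 members, 4 of them below background, 3 lay higher and 2 lower, with a median difference of 0.08. The median turned to -0.07 without control replicate 2 and to -0.11 without spermidine replicate 2, with 3 of 5 lower in both, and was 0.26 without control replicate 1. Oas3 was the only OAS member above background, with 7.47 and 7.49 without spermidine against 7.98 and 7.52 with it. The spermidine arrays exceeded the controls, replicate 2 by a narrow margin, and the difference was 0.27 ± 0.25 (SE) (limma adjusted p = 0.86). The other members lay below background on every array, where Oas1a stood at -0.26, Oas2 at -0.12, Oasl1 at 0.08 and Oasl2 at 0.16. Oas1a had the widest gap between arrays of a group among the members, 5.59 and 4.45 in the control arrays.

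The GTPases fall into the dynamin-like Mx proteins, the guanylate-binding proteins and the immunity-related GTPases, which act on viruses or on the vacuoles of intracellular microbes. Their median difference was -0.02 (0.04 with cyclic loess or a further quantile normalization), with 3 of 7 higher (5 and 4 of 7 under those scalings), but the group held the highest member of all. Mx1 had 8.30 and 8.96 without spermidine against 9.65 and 9.62 with it. Its spermidine arrays were the highest, with no overlap, and the difference was 1.0 ± 0.27 (SE), 2-fold higher (limma adjusted p = 0.637). Without control replicate 1 it was 0.67 and without control replicate 2 it was 1.33. The RefSeq annotation of the C57BL/6J genome (GRCm38.p6) lists Mx1 and its neighbour Mx2 as transcribed pseudogenes; which transcript the feature reads was not tested. Mx2 lay below background, with 5.64 and 5.87 without spermidine against 5.75 and 5.88 with it, and differed by 0.06 ± 0.23 (SE).

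The guanylate-binding and immunity-related GTPases had differences between -0.25 and 0.01. Gbp2 had 15.39 and 15.35 without spermidine against 15.31 and 15.39 with it, a difference of -0.02 ± 0.22 (SE). Gbp7 had 15.16 and 15.03 without spermidine against 15.06 and 15.15 with it, a difference of 0.01 ± 0.22 (SE). In both genes the arrays of the groups overlapped. Gbp3 differed by -0.10 ± 0.22 (SE) and Irgm1, which regulates the other GTPases of its family, by -0.05 ± 0.23 (SE). Igtp had 14.80 and 14.38 without spermidine against 14.46 and 14.21 with it. Its groups overlapped, with control replicate 1 the highest, and the difference was -0.25 ± 0.25 (SE).

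**Figure D3:**
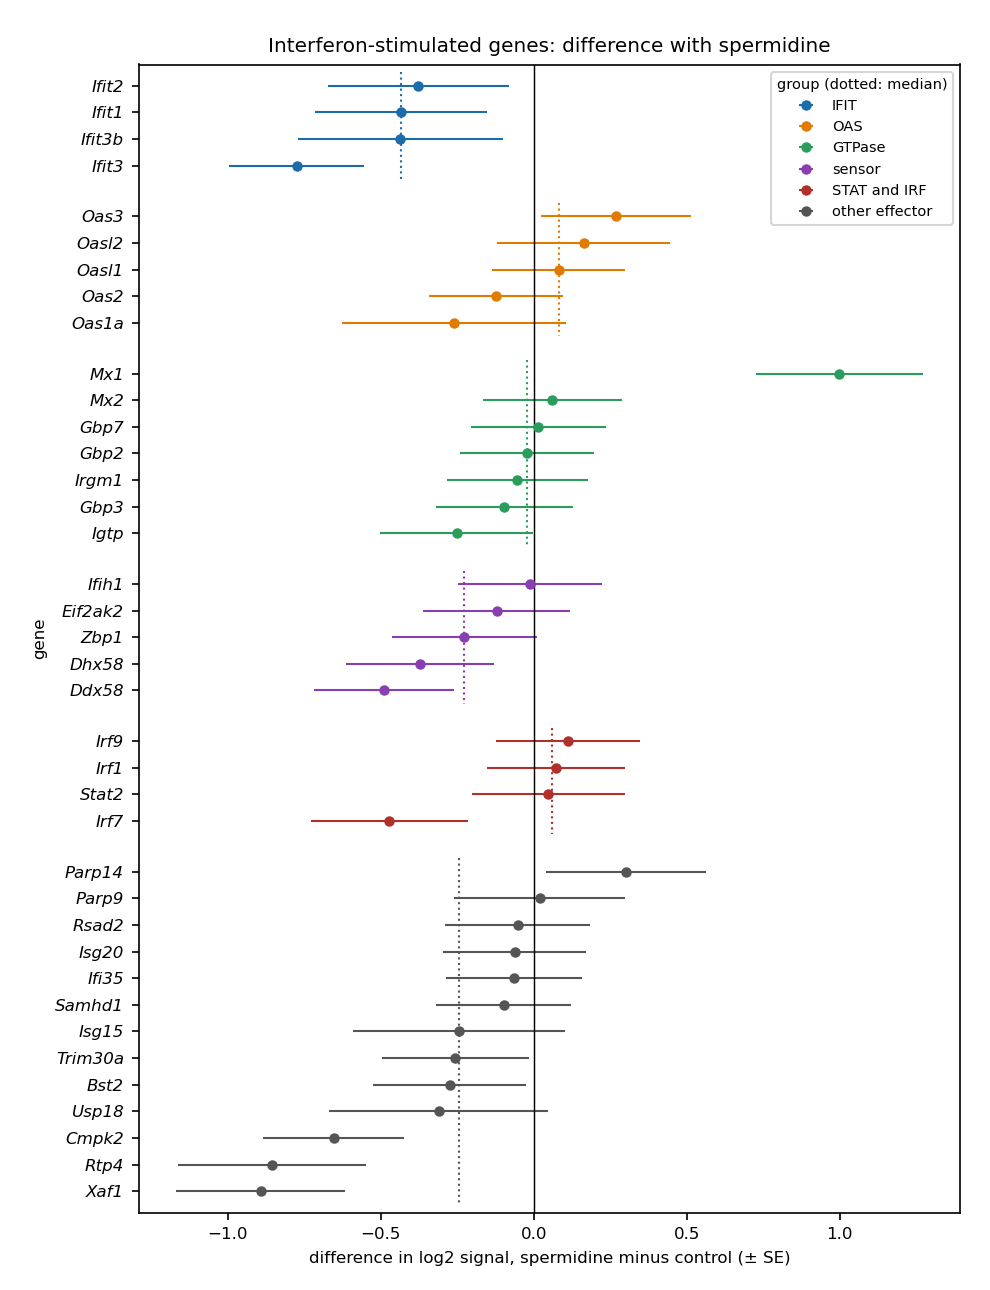
Difference in log2 signal (spermidine minus control, ± SE from the limma fit, 2 arrays a group) of each member, coloured by group, with the median of each group as a dotted line. The 4 IFIT genes lie left of 0, Mx1 stands alone at 1.0, and the bars of most other members reach 0.

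The sensor group detects viral nucleic acid or reacts to it, and its 5 measured members all had lower mean signals with all arrays. Ifih1 lay higher with cyclic loess, with a further quantile normalization, and without control replicate 2 or spermidine replicate 2, and Eif2ak2 lay higher without control replicate 1. Their median difference was -0.23. Ddx58, which encodes the RNA helicase RIG-I, had 10.54 and 10.48 without spermidine against 9.88 and 10.16 with it. Its highest spermidine array lay below its lowest control array, and the difference was -0.49 ± 0.23 (SE) (limma adjusted p = 0.727). Dhx58, the gene of the regulatory helicase LGP2, had 6.67 and 6.35 without spermidine against 6.0 and 6.28 with it. The groups did not overlap, but the signals straddled background, and the difference was -0.37 ± 0.24 (SE).

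The other sensors differed by less. Zbp1, a sensor of Z-form nucleic acid, had 10.03 and 9.93 without spermidine against 9.93 and 9.58 with it. Spermidine replicate 1 lay just under control replicate 2, and the gap between the spermidine arrays was wider than the difference of -0.23 ± 0.24 (SE). Eif2ak2, the gene of the kinase PKR that stops translation, differed by -0.12 ± 0.24 (SE), and Ifih1, the gene of the RNA helicase MDA5, by -0.01 ± 0.24 (SE). For Ifih1 the spermidine arrays enclosed the control arrays, at 8.40, 8.54 (control), 8.63 and 8.29 (spermidine). Over the arrays left out, the group median ran from -0.31 (control replicate 2) to -0.05 (spermidine replicate 2).

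Of the STAT and IRF group, which transmits the signal to promoters, 3 of 4 members differed by little and Irf7 was lower. Stat2, the partner of the type I complex, had 11.18 and 10.98 without spermidine against 11.35 and 10.90 with it. The spermidine arrays enclosed the control arrays, and the difference was 0.05 ± 0.25 (SE). Irf9, its DNA-binding partner, differed by 0.11 ± 0.24 (SE). Irf1, the factor that interferon gamma induces, had 13.74 and 13.91 without spermidine against 13.83 and 13.97 with it. Its arrays were interleaved and the difference was 0.07 ± 0.22 (SE).

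Irf7, which amplifies type I interferon production, had 7.05 and 6.52 without spermidine against 6.36 and 6.26 with it. The groups were apart, though spermidine replicate 2 lay below background and spermidine replicate 1 just above it, and the difference was -0.47 ± 0.26 (SE) (limma adjusted p = 0.753). It became -0.21 without control replicate 1 and -0.74 without control replicate 2, so its size differed with the control array used. The median of the group was 0.06 with all arrays, -0.02 without spermidine replicate 1 and -0.03 without spermidine replicate 2.

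The 13 other effectors measured had a median difference of -0.24, with 11 lower and 2 higher. Without control replicate 1 the median was -0.13, with 7 lower and 6 higher, and without spermidine replicate 2 it was -0.04, with 9 lower and 4 higher. The lowest of all members was Xaf1, a partner of the apoptosis inhibitor XIAP, with 9.72 and 9.62 without spermidine against 9.11 and 8.44 with it. Its groups were apart and the difference was -0.89 ± 0.28 (SE), 1.86-fold lower (limma adjusted p = 0.637), but it ran from -1.23 without spermidine replicate 1 to -0.56 without spermidine replicate 2. Rtp4, a chaperone of membrane receptors, had 8.19 and 7.83 without spermidine against 7.55 and 6.76 with it. Here too they were apart, with a difference of -0.86 ± 0.31 (SE), 1.81-fold lower (limma adjusted p = 0.661), and -1.25 without spermidine replicate 1 or -0.46 without spermidine replicate 2. In both genes spermidine replicate 2 was the lowest array.

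Cmpk2, a mitochondrial nucleotide kinase, had 7.03 and 7.10 without spermidine against 6.56 and 6.27 with it. Its groups were apart, spermidine replicate 2 lay below background, and the difference was -0.65 ± 0.23 (SE) (limma adjusted p = 0.649), with -0.51 to -0.80 over the arrays left out. Its neighbour in the genome, the antiviral enzyme gene Rsad2 (viperin), lay below background with a difference of -0.05.

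Isg15, the gene of a ubiquitin-like protein that is joined to other proteins, exceeded background in control replicate 1 only, with 6.43 and 5.36 without spermidine against 5.70 and 5.61 with it. The spermidine arrays lay between the control arrays. Its difference of -0.24 ± 0.35 (SE) turned to 0.29 without control replicate 1 and stood at -0.78 without control replicate 2. Usp18, whose product removes Isg15 and damps the type I receptor, had 8.27 and 7.40 without spermidine against 7.89 and 7.16 with it. Its arrays overlapped, with replicate 1 above replicate 2 in each group, and its difference of -0.31 ± 0.36 (SE) turned to 0.12 when control replicate 1 was left out and to 0.06 when spermidine replicate 2 was.

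The remaining effectors lay above background. Bst2, the gene of tetherin, which holds budding virus at the membrane, had 12.78 and 12.63 without spermidine against 12.67 and 12.19 with it, a difference of -0.28 ± 0.25 (SE). Samhd1, which breaks down deoxynucleotides, differed by -0.10 ± 0.22 (SE) at signals of 16.19 to 16.40. Trim30a stood at -0.26 ± 0.24 (SE), the exonuclease gene Isg20 at -0.06 ± 0.23 (SE) and Ifi35 at -0.07 ± 0.22 (SE). The ADP-ribosyltransferase gene Parp14 stood at 0.30 ± 0.26 (SE) and Parp9, its partner, at 0.02 ± 0.28 (SE); these 2 were the only effectors with a higher mean. The arrays of all 7 overlapped between the groups.

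**Figure D4:**
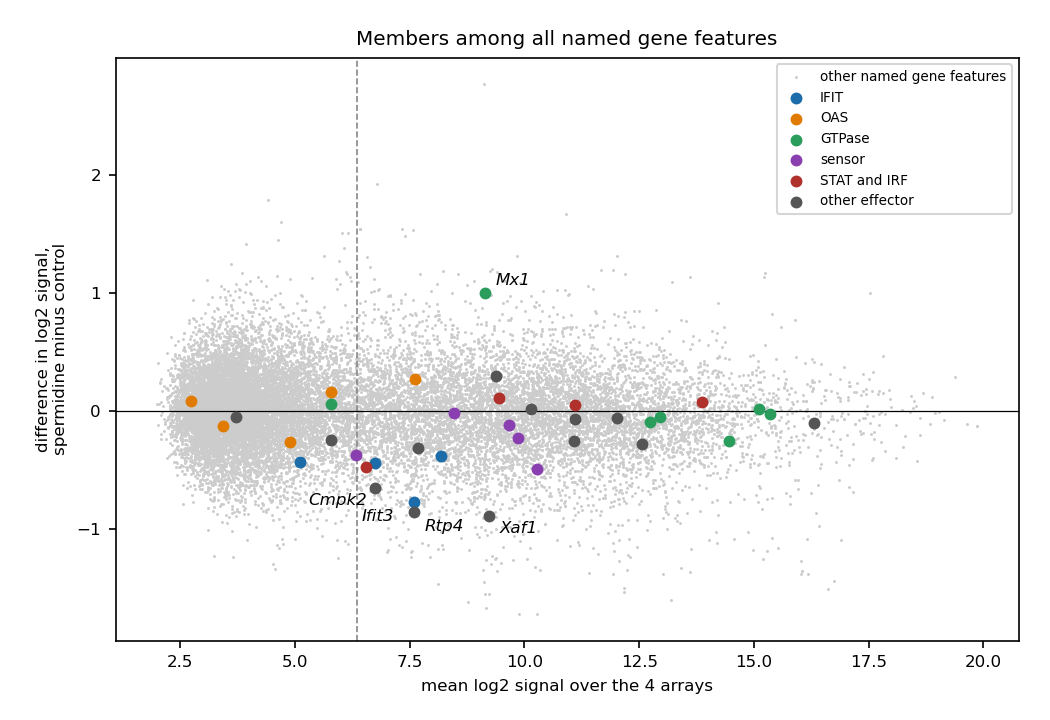
Difference in log2 signal (spermidine minus control) against the mean log2 signal over the 4 arrays, for the named gene features (grey) and the members (coloured by group); the dashed line is the background of 6.35. The members lie within the cloud of other features, with Mx1 at 1.0 and Xaf1 at -0.89 as their ends.

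The members also differed between arrays of the same group. Control replicate 1 gave the highest of the 4 signals in 21 of 38 members (55.3%; 26.6% of all features and 37.5% of those at or above background). Spermidine replicate 2 gave the lowest signal in 17 (44.7%; 30.5% and 39.8%). Control replicate 1 exceeded control replicate 2 in 26 members (68.4%), against 49.1% of all features and 61.9% of those at or above background. The median absolute gap was 0.19 between the control arrays and 0.28 between the spermidine arrays, and the median absolute difference between the groups was 0.24. Over all features the same values were 0.25, 0.27 and 0.20, and over those at or above background 0.23, 0.26 and 0.21. The members' typical difference between groups lay between their typical gaps, and that of all features lay below both gaps. A difference between means of 2 arrays varies less than a gap between single arrays, so these sizes are not like for like.

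Array medians lay between 5.13 and 5.25 and the arrays correlated at 0.989 to 0.994 over features. The CD8 T cell markers measured, Cd3d, Cd3e, Cd8a, Cd8b1 and Cd2, had signals of 13.39 to 17.19 and were lower with spermidine in 5 of 5 (median -0.21). Of the 3 CD4 T cell markers measured, Cd4 had 7.11 and 6.84 without spermidine against 6.59 and 7.24 with it, with overlap and a difference of -0.06. Zbtb7b had 6.32 and 6.88 without spermidine against 7.32 and 7.41 with it, without overlap and with a difference of 0.76, and Cd40lg lay below background. The mean of that list was 5.70 to 5.83 in the control and 5.87 to 6.02 in the spermidine arrays. The 7 B cell markers measured were higher with spermidine in 7 of 7, and 5 of them without overlap (71.4%, beside 18.3% of all features). Their mean signal was 5.65 to 5.72 in the control and 6.02 to 6.30 in the spermidine arrays. Of the 7, 4 lay below background on every array, including Ms4a1. Cd79a (0.81), Ebf1 (0.52) and Cd79b (0.35) lay above it on every array and were higher without overlap. Of the macrophage and monocyte markers 6 of 6 lay below background on every array (mean 3.73 to 3.74 in the control and 3.69 to 3.73 in the spermidine arrays), as did 6 of 6 conventional dendritic cell (mean 2.94 to 3.09 and 3.05 to 3.23) and 4 of 4 neutrophil markers (mean 3.40 to 3.47 and 3.40 to 3.61). The 5 markers of plasmacytoid dendritic cells, which make much type I interferon, were divided, with means of 6.10 to 6.30 and 6.09 to 6.27. Siglech and Klk1 lay below background on every array. Tcf4 (0.78) and Ccr9 (0.31) lay above it on every array and were higher with spermidine without overlap. Cox6a2 (-1.25) was lower without overlap, but exceeded background on 1 array only, control replicate 1. Of 4 NK cell markers, Eomes (11.82 to 13.57) and Klrb1c (6.38 to 7.13) lay above background, with overlap between the groups. Ncr1 (0.44) and Klre1 (-0.85) lay below background on every array, each without overlap. The list mean was 6.97 to 7.42 in the control and 6.70 to 7.30 in the spermidine arrays, and Eomes gave its highest signals. Whether Eomes, or Ccr9 of the plasmacytoid list, marks another cell type in these CD8+ T cell cultures was not tested. Control probes added in known amounts also stood higher on the spermidine arrays, by a mean of 0.45 for 4 hybridisation and 0.43 for 4 labelling features. The part of these marker and control probe signals in the members' values was not tested, and fewer cells of a type and less RNA per cell cannot be told apart in these bulk samples.

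The genes that start and carry the interferon signal were read from 6 further lists. Of the 10 interferon genes measured only Ifng exceeded background, with 8.53 and 8.24 without spermidine against 8.35 and 8.13 with it, a difference of -0.14 ± 0.24 (SE). The groups overlapped. Below background, the interferon genes with the largest statistics were Ifnz (1.06), Ifnl3 (-0.42), Ifnl2 (-0.37) and Ifnb1 (-0.28). Their signals give no measure of expression.

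Of 9 receptor and kinase genes 7 lay higher, with a median of 0.08 and 0 passing the adjusted test. Tyk2, a kinase of the type I receptor, had 10.56 and 11.08 without spermidine against 11.31 and 11.40 with it, a difference of 0.54 ± 0.26 (SE) (limma adjusted p = 0.733) without overlap. Jak1 stood at 0.29 ± 0.24 (SE), Il10rb, which serves the interferon lambda receptor, at -0.24 ± 0.22 (SE), and Ifnlr1 at -0.28 below background. The receptor genes Ifnar1 and Ifngr1 differed by 0.19 ± 0.23 (SE) and 0.08 ± 0.22 (SE).

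The 10 other transcription factors of the pathway had a median of -0.01, with 4 higher and 6 lower, 0 of them passing. Stat5b stood at 0.41 ± 0.24 (SE), Irf8 at -0.34 ± 0.29 (SE), Irf4 at -0.19 ± 0.25 (SE) and Batf2 at 0.45 below background. The 9 feedback inhibitors had a median of -0.19, with 3 higher and 6 lower. Pias1 stood at -0.42 ± 0.22 (SE), the phosphatase genes Ptpn2 at -0.43 ± 0.27 (SE) and Ptpn1 at 0.24 ± 0.23 (SE), and Pias4 at -0.29 ± 0.23 (SE). Socs1, the main feedback inhibitor of Jak kinases, had 12.47 and 11.94 without spermidine against 12.17 and 11.72 with it, and its overlapping arrays differed by -0.26 ± 0.28 (SE).

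The 12 genes of sensing adaptors were divided, 6 higher and 6 lower, with a median of -0.05. The kinase gene Ikbke had 10.86 and 11.31 without spermidine against 11.49 and 11.99 with it, a difference of 0.65 ± 0.28 (SE) without overlap (limma adjusted p = 0.706). The related kinase gene Tbk1 stood at 0.44 ± 0.24 (SE). Mb21d1, the gene of the DNA sensor cGAS, stood at -0.54 ± 0.24 (SE), and Tlr9 at 0.93 below background.

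For other interferon-stimulated genes, 94 symbols were listed and 82 distinct array symbols were measured. Listed symbols that led to the same array symbol through synonyms were counted once, as Tgtp1 with Tgtp2 and Ifi203 with Mndal. Of the measured genes 53 lay lower and 29 higher, with a median difference of -0.10, close to that of the members. Of the 82, 65 lay above background on all arrays. The arrays of the groups did not overlap in 28 lower (34.1%) and 8 higher genes (9.76%), beside 18.4% and 18.3% of all features. Among features with a mean at or above background these shares were 22.5% and 19.2%. In either direction 0 of the listed genes passed the adjusted test. The largest statistic was that of Ifit1bl1, a relative of Ifit1, with 9.69 and 9.43 without spermidine against 8.75 and 8.56 with it. The groups did not overlap, and the difference was -0.90 ± 0.23 (SE), 1.87-fold lower (limma adjusted p = 0.637). Phf11a stood at -0.76 ± 0.22 (SE), the HIN-200 family gene Ifi208 at -0.72 ± 0.22 (SE) and Ifi27l2a at -0.85 ± 0.27 (SE), each without overlap. At an unadjusted p under 0.05 there were 8 lower genes (9.76%, beside 3.64% of all features) and 1 higher gene (1.22%, beside 3.38%). Among features with a mean at or above background the shares were 5.32% lower and 3.61% higher. The higher gene, N4bp1, stood at 0.72 ± 0.23 (SE) and was named after its value was seen.

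**Figure D5:**
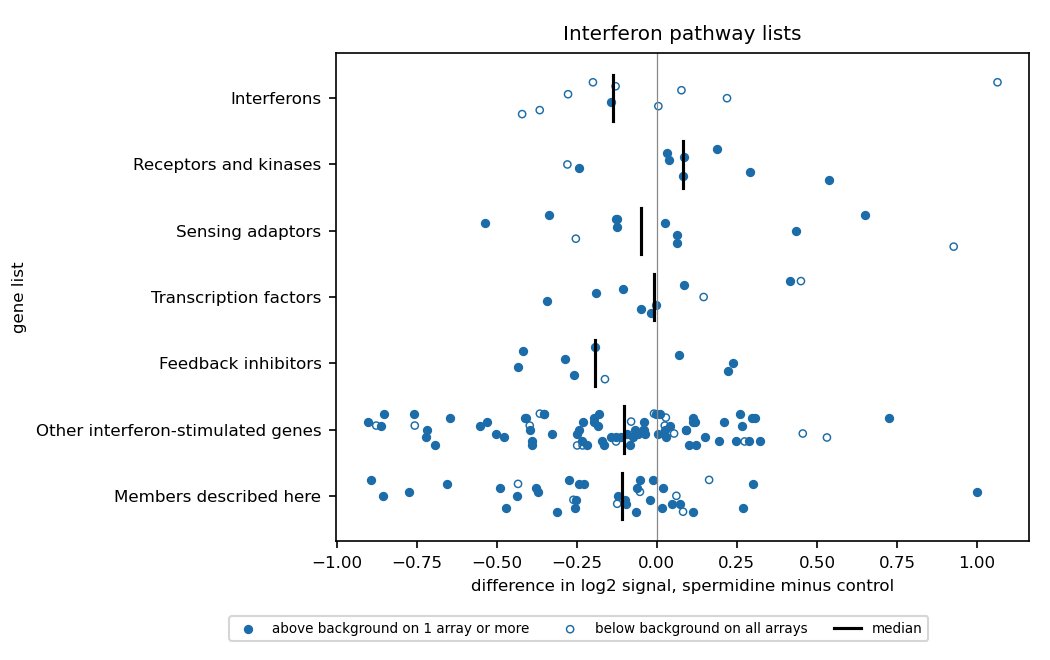
Difference in log2 signal (spermidine minus control) of each measured gene in 6 interferon pathway lists and in the 38 members, with the median of each list as a bar; open points lay below background on all 4 arrays. List medians run from -0.19 (feedback inhibitors) to 0.08 (receptors and kinases), and the members' median is -0.11.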

How the data were processed

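The authors deposited log2 signals per feature. The submitters' processing notes name RMA and Affymetrix Expression Console, with no version. RMA subtracts a modelled background, equalises the arrays' distributions and combines probes, which shrinks differences at low signal. The base of the logarithm was inferred from the values, which reach above the usual range of a scanner; whether they were rescaled is not known, and each fold assumes that they were not. Of 28846 features, 6640 control features were left out and 22206 gene features tested; 19572 carried 1 symbol from the platform annotation (19505 genes) and 2634 none. The build of its annotation was not given in the sources used here; promoters are RefSeq's, build GRCm38.p6.

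Groups and replicate numbers came from the sample titles. Groups were compared by limma 3.58.1 under R 4.3.3 (functions lmFit, eBayes; two-sided; 5.96 prior and 2 residual degrees of freedom), with Benjamini-Hochberg adjustment over all 22206 features, a threshold of 0.05 and a median SE of 0.25. The fit was tested on simulated data. Members, gene lists and the rule for named genes were chosen with earlier results of these data known. All measured members are named. Array values are given for members with non-overlapping groups and an absolute difference of at least 0.5, or an unadjusted p under 0.05, above background, for 6 members fixed by name, and for others where they show overlap; in the 6 further lists up to 4 genes by statistic and 5 by name, 1 of which is not reported here. Protein sequences were not used here.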

Additional observations from a re-analysis of the deposited data

How the results depend on the processing

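With 2 arrays a group, precision is limited by the spread between arrays, and 7 members below background on every array, with differences compressed by RMA, limit what can be read from them. No member was called under any alternative that kept the adjusted threshold, over 13 settings, and the adjusted p of the 11 members fixed or selected by the rule ran from 0.272 (Xaf1) to 1 over them. Of all features 0 were called with all arrays, with array weights, with a robust prior, with a further quantile normalization and without any 1 array; 1 was called with cyclic loess, median centring, a prior following intensity, the replicate block, and the filters at the median and at the background level. With the threshold on the unadjusted p instead, 1558 features and 5 members passed. Members at an unadjusted p under 0.05 numbered 0 to 7 over the arrays left out, and 5 under each other setting. Members with a higher mean numbered 9 to 16 over the arrays left out, and 8 to 14 otherwise, where the lowest count comes from the filter that left 29 members.

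Over the arrays left out the median difference of all members ran from -0.239 to -0.0493, of the IFIT members from -0.70 to -0.38 and of the STAT and IRF members from -0.0324 to 0.0651. Over the other settings these medians ran from -0.12 to -0.06, from -0.46 to -0.44 and from 0.05 to 0.11. The OAS median ran from -0.11 to 0.26, the GTPase median from -0.05 to 0.02, the sensor median from -0.31 to -0.05 and that of the other effectors from -0.35 to -0.04 over the arrays left out. The GTPase median was also positive with cyclic loess and a further quantile normalization (0.04 in both). Each symbol had 1 feature, so averaging features of a symbol gave the same values.

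The replicate numbers share only a number, since no label says what they pair; deviations of same-numbered arrays correlated at 0.21 over features. With the replicate block 1 feature, 0 members and 5 members at an unadjusted p under 0.05 were called; in this balanced design the block cannot alter a mean difference.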

Other observations

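The IFIT genes lie together in the mouse genome, and the array also carries the related genes Ifit1bl1 and Ifit1bl2 from the list of other interferon-stimulated genes. Ifit1bl1 and Ifit1bl2 also had lower means with spermidine, as did 50.9% of all features and 54.2% of those at or above background. With the 4 members that prompted the look, 6 of 6 IFIT-family features lay lower with all arrays. Of these, Ifit3b lay higher without spermidine replicate 2. Ifit1bl2 had 6.24 and 5.16 without spermidine against 4.46 and 5.19 with it, a difference of -0.88 ± 0.39 (SE), with all signals below background and overlapping groups. The values were looked at after the IFIT group had been seen to be low.

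Mx1 was the member with the highest difference although the genome annotation gives it no protein. Its nearest genes by order on the chromosome were Bace2 and Fam3b, which lay below background on every array and stood at -0.34 and 0.40. Whether the Mx1 feature reads transcript of the annotated exons was not tested.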
